A study of Homo sapiens with 6 samples.

Results

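The miR-320 family and miR-484 were followed in MDA-MB-231 cells, an established human triple-negative breast cancer line, with and without Withaferin A (WA), a steroidal lactone of Withania somnifera. The members were chosen by name, as every miRNA of the deposited table called miR-320 with a letter from a to e, with or without an arm, plus miR-484. Members are 6 of the 413 miRNAs listed, namely hsa-miR-320a-3p, hsa-miR-320b, hsa-miR-320c, hsa-miR-320d, hsa-miR-320e and hsa-miR-484, where hsa marks the human forms and is left out from here on. The similarly numbered miR-3200-3p is a different miRNA and was not counted. Small RNA was sequenced from 3 vehicle-treated libraries and from 3 libraries of cells given 2 µM WA, both at 24 h, so that treatment is the only difference the labels record. The study's methods name DMSO as the vehicle, while the labels call these cells untreated. All libraries come from this single cell line. The study calls the 3 replicates of each group independent, while the labels do not say that they were separate cultures. The p-values therefore measure the spread between these libraries.

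Most miRNAs are cut from a long primary transcript by Drosha in the nucleus and are then exported and cut again by Dicer. The miR-320 precursor is a textbook exception. Its hairpin is itself the start of a short capped transcript, needs no Drosha cut, leaves the nucleus through exportin-1 in place of exportin-5, and delivers only its 3p arm to Argonaute. miR-484 is a further miRNA known to mature without Drosha. miR-320b to e are named for sequences close to miR-320a, and how each of them is made is less well established.

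The mature sequences show how much the family members share, which bears on how far reads can be told apart. They are given 5′ to 3′ from RefSeq (GRCh38.p14), with the seed (bases 2 to 8, the part that pairs with targets) in capitals, for the 5 members that were matched by name.
miR-320b: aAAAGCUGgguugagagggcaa
miR-320c: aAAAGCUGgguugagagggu
miR-320d: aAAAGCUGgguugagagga
miR-320e: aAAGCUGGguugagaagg
miR-484: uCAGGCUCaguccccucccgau
miR-320b, c and d have the same seed, and their first 18 bases are identical. Beyond these, miR-320b (22 bases), miR-320c (20 bases) and miR-320d (19 bases) differ only near the 3′ end, so a shortened or extended read of one can match another. miR-320e starts 1 base further in, which moves its annotated seed by 1 base, and it shares a run of 15 bases with the other 3. miR-484 shares no run longer than 3 bases with any of them. Among the mature miRNAs of RefSeq that were searched, miR-4429 also has the seed of miR-320b, c and d, and it was not analysed here. No sequence of miR-320a-3p was matched by name, so its seed and its likeness to the other members were not compared. How the study's counting divided reads between near-identical family members is not given in the sources used here, so the split between them is uncertain.

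RefSeq places these 5 members at 8 hairpins. miR-320b comes from 2 of them, both shown here with the mature sequence in capitals, beside that of miR-320e.
MIR320B1: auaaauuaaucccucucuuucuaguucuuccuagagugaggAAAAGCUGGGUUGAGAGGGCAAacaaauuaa
MIR320B2: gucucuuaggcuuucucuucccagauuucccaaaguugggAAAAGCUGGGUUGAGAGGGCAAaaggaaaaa
MIR320E: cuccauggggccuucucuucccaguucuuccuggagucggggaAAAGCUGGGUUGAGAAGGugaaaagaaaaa
In all 7 hairpins of miR-320b to e the mature sequence lies in the 3′ arm and begins at base 41 to 44 of a hairpin of 71 to 73 bases. The run aaaagcuggguugaga is present in 7 of 7 of these hairpins, including MIR320E, where the annotated mature form leaves out its first base. In GRCh38, MIR320B1 lies at chr1:116671746-116671817 on the plus strand and MIR320B2 at chr1:224257040-224257110 on the minus strand. By GENCODE release 44, MIR320B2 is in an intron of NVL, on the same strand, and MIR320E (chr19:46709282-46709354, minus strand) is in an intron of PRKD2, also on the same strand. MIR320C1 (chr18:21683518-21683589) and MIR320C2 (chr18:24321675-24321746), both on the plus strand, lie within introns of ABHD3 and OSBPL1A, which are read from the opposite strand. MIR320B1, MIR320D1 (chr13:40727816-40727887, minus strand) and MIR320D2 (chrX:140926160-140926231, minus strand) had no host gene in that release. MIR484 (chr16:15643294-15643372, plus strand) is placed differently. Its hairpin begins 27 bases, and its mature sequence 34 bases, after the start of 1 of the 22 annotated NDE1 transcripts, in an untranslated exon, and the mature sequence lies in the 5′ arm, at bases 8 to 29. The nearest start of a protein-coding transcript on the same strand was 4669 bases or more from each of the 7 miR-320 hairpins.

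The values are read counts that the authors divided by a size factor for each library, called normalized values here. Within a library all of them are whole multiples of the smallest step, which was taken as 1 read. The total over the 413 listed miRNAs was 710878 to 4778066 reads in the vehicle libraries and 156442 to 2232934 in the WA libraries. The paper describes these 413 as the miRNAs expressed in both groups. Totals and percentages of a library cover the listed miRNAs only. Values are listed from replicate 1 to replicate 3 throughout. Over all miRNAs WA replicate 3 stood apart, with Pearson correlations of log2(normalized value + 1) of 0.630 and 0.641 with WA replicates 1 and 2 and of 0.772 to 0.797 with the vehicle libraries. Vehicle replicate 1 also stood apart from vehicle replicates 2 and 3, at 0.785 and 0.792. Of the markers of a mesenchymal breast cancer line, 4 of 4 were in the table (miR-21-5p, miR-221-3p, miR-222-3p and miR-100-5p), with 18.6% to 43.0% of each library in sum. Of 6 markers of epithelial cells 4 were in the table, and their sum was at most 0.189% of any library.

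The 6 members spanned a wide range of abundance. In every library miR-320a-3p was highest, followed by miR-484, miR-320b, miR-320c and miR-320d. miR-320a-3p exceeded miR-484 by 3.82-fold to 16.1-fold, and miR-484 exceeded miR-320b by 5.33-fold to 10.5-fold. miR-320b and miR-320c were closer, with a ratio of at most 4.17, and their counting intervals overlapped in each WA library. miR-320c and miR-320d differed by as little as 1.15-fold, in vehicle replicate 1, where their counting intervals of 75.1 to 121 and 64.4 to 108 overlapped. The intervals of miR-320c and miR-320d also overlapped in WA replicates 1 and 2. Counting alone therefore does not settle the order of these members in those libraries. miR-320d and miR-320e could not be ordered, since miR-320e was the higher of them in WA replicate 1. Levels of different miRNAs also carry the efficiency with which adapters join each sequence, which was not measured.

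**Figure D1:**
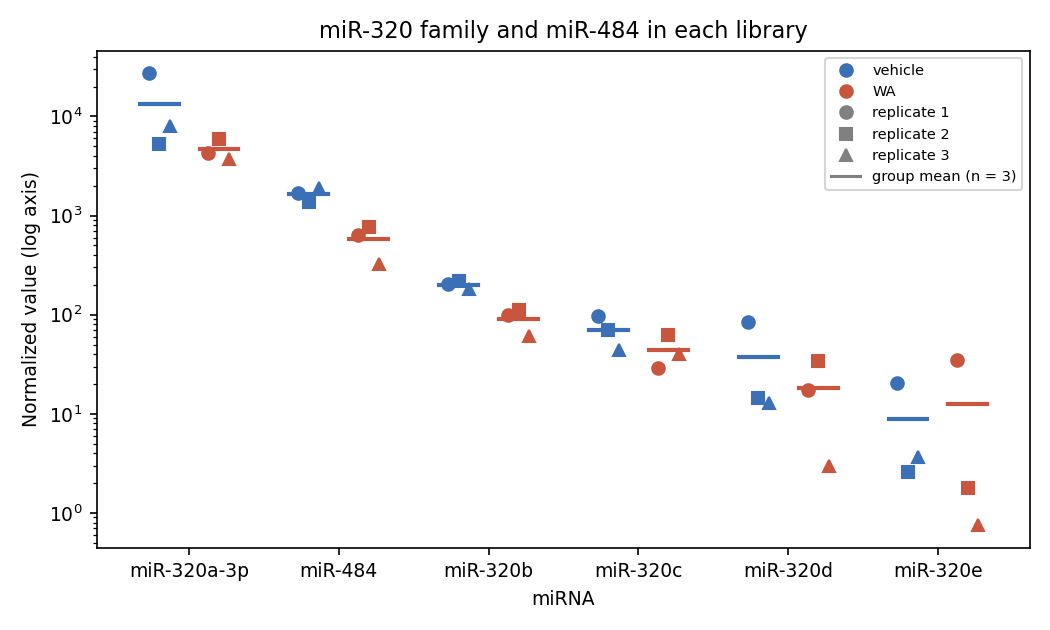
Normalized value of each member (log axis) in the 3 vehicle libraries (blue) and the 3 WA libraries (red), with the replicate as the symbol and the group mean as a bar. All WA values of miR-484 and miR-320b lie under all vehicle values, while the groups overlap for the other members.

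miR-320a-3p, the founding member of the family, measured 27212, 5296 and 7931 in normalized values without WA and 4273, 5953 and 3702 with WA. Vehicle replicate 1 was far above the other libraries, and WA replicate 2 exceeded vehicle replicate 2, so the groups overlapped. It held 2.83%, 0.388% and 0.618% of the vehicle libraries and 0.471%, 0.590% and 0.221% of the WA libraries, and ranked between 10 and 46 of 413 in each. Its log2 fold change, WA against vehicle, was -1.20 (standard error 0.778, 95% interval -3.02 to 0.62), with a limma adjusted p of 0.367. Without vehicle replicate 1 the log2 fold change was -0.51. In bulk RNA of this kind, fewer cells that express a miRNA and less of it in each cell cannot be told apart.

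miR-484 measured 1694, 1385 and 1911 without WA, from 1251, 4849 and 6252 reads. With WA it measured 643, 770.1 and 325, from 111, 431 and 432 reads. Every WA library lay under every vehicle library, and the highest WA value was WA replicate 2. The vehicle mean was 1663 ± 264 (SD, n = 3) and the WA mean 579 ± 230 (SD, n = 3). The log2 fold change was -1.60 (standard error 0.648, 95% interval -3.11 to -0.09), with an unadjusted p of 0.0409 and an adjusted p of 0.176 by limma, so the difference did not pass the correction. Without WA replicate 3, the library with its lowest value, the log2 fold change was -1.23. The limma adjusted p of miR-484 was then 0.0614, where 147 of the 327 tested miRNAs passed 0.05. Leaving out any of the other libraries except vehicle replicate 1 took the unadjusted p past 0.05, to at most 0.134.

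miR-320b, which differs from miR-320c and d only in its 3′ end, measured 203, 218 and 182 without WA and 98.6, 113 and 60.9 with WA. Every WA value was under every vehicle value. The vehicle libraries spread very little, with an SD of 0.13 on the log2 scale that was as low or lower in only 1.83% of the tested miRNAs. The WA values rest on 17, 63 and 81 reads, which gives a counting interval of 57.4 to 158 in WA replicate 1. The log2 fold change was -1.18 (standard error 0.873, 95% interval -3.22 to 0.86), with a limma adjusted p of 0.410.

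miR-320c measured 96.2, 69.4 and 43.7 without WA and 29.0, 62.5 and 40.6 with WA. The groups overlapped, and WA replicate 1 rests on 5 reads. The log2 fold change was -0.65 (standard error 1.09, 95% interval -3.19 to 1.89), with a limma adjusted p of 0.695. Without vehicle replicate 1, and likewise without WA replicate 1, this log2 fold change was -0.39. miR-320d measured 84.0, 14.6 and 12.8 without WA and 17.4, 33.9 and 3.01 with WA. Vehicle replicate 1 was again the highest, and the other libraries crossed between groups. The log2 fold change of miR-320d was -0.94 (95% interval -4.13 to 2.24), with a limma adjusted p of 0.643, and it was -0.10 without vehicle replicate 1 and -0.06 without WA replicate 3.

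miR-320e, the shortest member and the only one with the moved seed, was not tested, since fewer than 3 libraries reached the required value of 10. It measured 20.3, 2.57 and 3.67 without WA, from 15, 9 and 12 reads. With WA it measured 34.8, 1.79 and 0.751, from 6, 1 and 1 reads. Replicate 1 was the highest library of each group, and the interval of counting error in WA replicate 1 ran from 12.8 to 75.7. The limit that a count of 0 leaves, 3 reads, equals 17.4 in WA replicate 1 and 0.857 in vehicle replicate 2, so a low member could be missed far more easily in the first of these libraries. Intervals and limits cover counting error only and assume that 1 step is 1 read.

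None of the 5 tested members passed a limma adjusted p of 0.05, against 5.5% of all 327 tested miRNAs (5.2% called lower in WA), and 1 of the 5, miR-484, had an unadjusted p under 0.05, against 26.3% (21.7% in the lower direction). Every WA library was under every vehicle library for 2 of the 5 members, miR-320b and miR-484, against 19.6% of all tested miRNAs, or 27.2% when both directions count. All 5 log2 fold changes were negative, with a median of -1.18. The median over all 327 tested miRNAs was -0.91 on the same scale, and 60.6% of them were negative. Set against that median, miR-484 was lower by 0.69, miR-320a-3p by 0.29 and miR-320b by 0.27, miR-320d differed by -0.03, and miR-320c was higher by 0.26. The members therefore lay near the middle of the distribution, with miR-484 the lowest of them at its percentile of 41.0. Scaling moved the median of all tested miRNAs to -0.73 (upper quartile) and -0.71 (trimmed mean of M values), and the distance of miR-484 from it was -0.70 and -0.69 under these scalings.

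**Figure D2:**
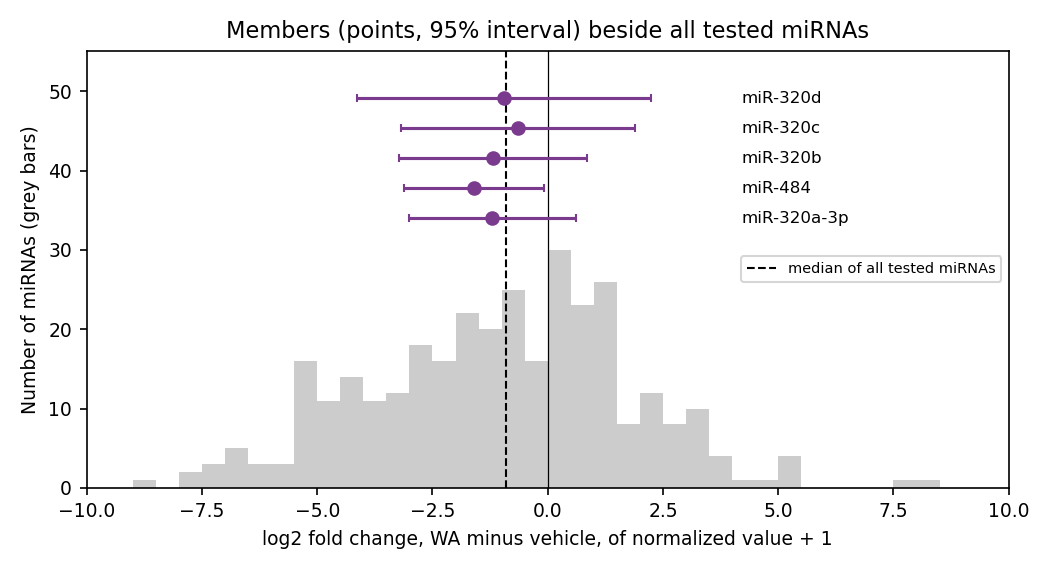
Log2 fold change (WA minus vehicle, normalized value + 1) of the 5 tested members as points with 95% intervals, above a histogram of the log2 fold changes of all 327 tested miRNAs, with their median of -0.91 dashed. The interval of miR-484 ends just under 0, the intervals of the other 4 include 0, and all 5 points lie in the middle of the histogram.

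The family was also compared as a sum, because a sum is less open to the division of reads between near-identical members. Summed over miR-320a to e, the family measured 27615, 5600 and 8173 without WA and 4452, 6164 and 3808 with WA. The groups overlapped, and the mean log2 sum differed by -1.20 (exact permutation test, two-sided p = 0.2, and 0.4 after adjustment over the 2 family tests, where 0.1 is the smallest p that 3 libraries against 3 allow). Without vehicle replicate 1 the difference was -0.52. With miR-320a-3p left out, the sum of miR-320b to e was 404, 304 and 242 without WA and 180, 211 and 105 with WA. These did not overlap, where 19.6% of all tested miRNAs had every WA library under every vehicle library. The difference in mean log2 sum was -0.97 (exact permutation test, two-sided p = 0.1, not adjusted). miR-320b was the largest part of this sum in each library and did not overlap by itself, so this is no separate result.

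miR-320a-3p made up nearly all of the family in each library. Its share was 98.5%, 94.6% and 97.0% of the sum without WA and 96.0%, 96.6% and 97.2% with WA. The vehicle mean was 96.7% ± 2.00 (SD, n = 3) and the WA mean 96.6% ± 0.637 (SD, n = 3), a difference of -0.12 percentage points that was within the spread of the replicates (exact permutation test, two-sided p = 1.0, adjusted over the 2 family tests 1.0). miR-320b contributed 0.736% to 3.89% of the sum and miR-320c 0.348% to 1.24%. The WA libraries, at 1.60% to 2.21% for miR-320b, lay inside the vehicle range, whose ends were vehicle replicates 1 and 2.

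**Figure D3:**
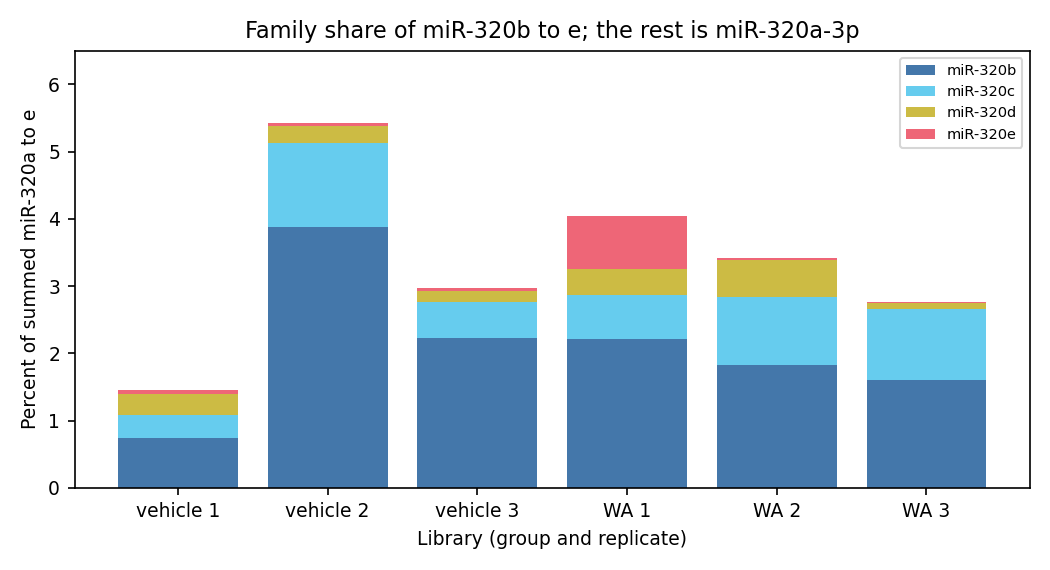
Percent of the summed normalized value of miR-320a to e held by miR-320b, c, d and e in each library, as stacked bars from 0, with miR-320a-3p as the rest of 100%. The stacks reach from 1.46% in vehicle replicate 1 to 5.43% in vehicle replicate 2, and the 3 WA libraries lie between these.

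Over all 6 libraries together, the tested members varied less than most miRNAs did. Over the 6 libraries the SD of log2(normalized value + 1) was 0.61 for miR-320c, 0.71 for miR-320b, 0.98 for miR-484, 1.04 for miR-320a-3p and 1.47 for miR-320d. All 5 were under the median of 2.04 over the 327 tested miRNAs. As low or lower an SD was found in 4.28% of the tested miRNAs for miR-320c and in 7.65% for miR-320b. Within the vehicle group alone, 3 of the 5 were under the median SD of 0.93, while miR-320a-3p (1.23) and miR-320d (1.47) were above it. Within the WA group alone, 4 of the 5 members, all but miR-320d, were under the median SD of 1.57, although WA replicate 3 stood apart from the other WA libraries over all miRNAs. WA replicate 3 gave the lowest WA value of 4 of the 5 tested members, all but miR-320c, against 35.2% of all tested miRNAs. Vehicle replicate 1 gave the highest vehicle value of 3 of the 5, miR-320a-3p, miR-320c and miR-320d, against 42.5%. The part of these 2 libraries in the differences between the groups was not tested beyond the values without them.

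**Figure D4:**
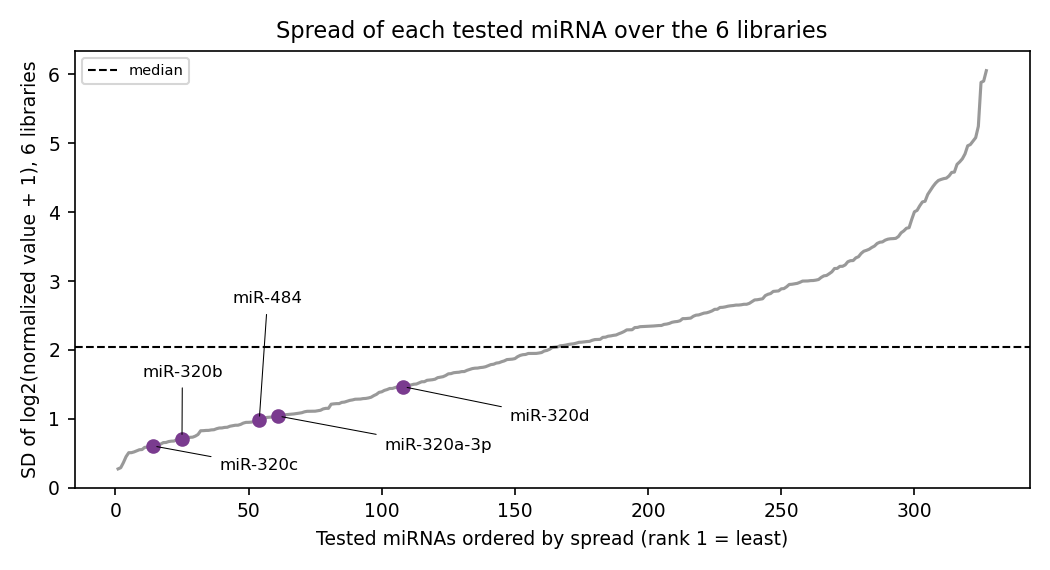
SD of log2(normalized value + 1) over the 6 libraries for each of the 327 tested miRNAs, ordered from the least to the greatest, with the 5 tested members marked. All 5 lie under the dashed median of 2.04, with miR-320c and miR-320b furthest to the left.

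The miRNAs closest in mean level did not all vary more. Over the 6 libraries the SD was 2.33 for miR-125a-5p and 1.09 for miR-30c-5p, beside 1.04 for miR-320a-3p, and it was 0.61 for miR-185-5p and 0.75 for miR-28-3p, both under the 0.98 of miR-484. miR-30c-5p and miR-125a-5p, next above and next below miR-320a-3p, were at 14916 and 70515 in WA replicate 3, against 3454 to 3531 and 974 to 2210 in the other WA libraries, where miR-320a-3p was at 3702 in that library. Next to miR-484 in level, miR-28-3p had all WA values above all vehicle values, where the groups of 27.2% of all tested miRNAs did not overlap in either direction. The log2 fold change of miR-28-3p was 0.86 (limma adjusted p 0.445). miR-185-5p overlapped between the groups, at 0.21 (limma adjusted p 0.849).

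By Pearson correlation of log2(normalized value + 1) over the 6 libraries, given as a description without a test, miR-320b and miR-484 were the most alike pair of members, at 0.965. The correlation of miR-320a-3p was 0.637 with miR-320b, 0.741 with miR-320c, 0.804 with miR-320d and 0.683 with miR-484. The 5 miRNAs outside the group most like miR-484 were miR-16-2-3p (0.982), miR-423-3p (0.960), miR-330-3p (0.944), miR-877-5p (0.937) and miR-1260b (0.934). The groups did not overlap for any of these 5, all lower in WA-treated cells, against 19.6% of all tested miRNAs. They were picked for their likeness to miR-484 over the same libraries, so this follows largely from the choice. None of the 5 passed a limma adjusted p of 0.05. Those most like miR-320a-3p were miR-424-3p (0.929), miR-193b-3p (0.881), miR-455-3p (0.875), miR-877-5p (0.857) and miR-1249-3p (0.839). Vehicle replicate 1 was the highest of the 6 libraries for all 5 of these, as it was for miR-320a-3p. They were picked for their likeness to miR-320a-3p over the same libraries, so this follows largely from the choice. The share of all tested miRNAs with this peak was not counted. miR-193b-3p, for example, measured 2598 there and 125 to 325 in the other libraries.

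miR-877-5p, which is on both lists, is a mirtron, a hairpin freed by splicing of a short intron and so another miRNA made without Drosha. Of the mirtron arms on the list used here, 6 were in the table and 2, both from miR-877, were tested. miR-877-5p measured 529.6, 171 and 220.1 without WA and 34.8, 51.8 and 20.3 with WA. All WA values were under all vehicle values, which held for 19.6% of all tested miRNAs. Its log2 fold change reached -2.99 (standard error 1.03, limma adjusted p 0.127). Its partner miR-877-3p, from the other arm, measured 35.2, 11.1 and 30.3 without WA and 0, 0 and 2.25 with WA. Its limma adjusted p was 0.0479, where 5.2% of all tested miRNAs were called lower in WA. It passed the filter only through the vehicle libraries, so this call is no separate support for a lower level. Its WA values lie at or under the limit that a count of 0 allows. The median log2 fold change of these 2 arms was -3.50, beside -1.18 for the 5 tested members and -0.91 for all tested miRNAs. Both arms come from the same hairpin, so this value does not describe mirtrons as a class. The other 4, miR-1226-3p, miR-1226-5p, miR-1228-3p and miR-1229-3p, lay under the filter and were listed at 0 in WA replicates 1 and 2. The Dicer-independent miR-451a was not analysed here.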

How the data were processed

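Small RNA of 3 vehicle-treated and 3 WA-treated MDA-MB-231 libraries was measured. The authors trimmed reads (Trim Galore), aligned them with Bowtie to GRCh38.p10, discarded those from other noncoding RNAs and assigned what remained to miRBase mature sequences. What they deposited is a signal: reads of a miRNA over the size factor that the authors' DESeq2 run gave its library. The authors' own comparison columns, deposited alongside, hold fold ratios, log2 fold changes and p-values (raw and adjusted) and were not used.

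All values (100%) divide evenly by their library's smallest step, and inverse steps (0.172 to 3.50) lay close to median-of-ratios size factors. Since the deposited values are not counts, no count model was run. Log2(normalized value + 1) was tested with limma 3.58.1 (R 4.3.3) over the 327 miRNAs that reached 10 in 3 or more libraries. The test used a variance trend and was two-sided and without pairing (Benjamini-Hochberg over all 327). The procedure was also run on simulated data with known changes. No simulated library was made to stand apart from its group, so that run does not show how the calls behave in these data. For miRNAs of low level, the added 1 makes fold changes too small. Family sums and shares were compared by exact permutation tests, and counting intervals are exact Poisson 95% intervals. Everything else was computed in Python 3.11.15 (scipy 1.17.1, pandas 2.3.3). The members, lists and tests were chosen with earlier results of these data known. The miRNAs named are the members, those of the mirtron and snoRNA lists, the 5 most correlated with miR-320a-3p and with miR-484 and their neighbours in mean level. The alternatives were other scalings, pseudocounts and filters, no variance trend, a block for replicate numbers, each library left out, and all libraries thinned to the depth of the shallowest.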

Additional observations from a re-analysis of the deposited data

How the results depend on the processing

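The 79 refits of the 5 tested members over 16 alternatives gave a negative log2 fold change in all 79 and a limma adjusted p under 0.05 in none. The lowest was 0.0614, for miR-484 without WA replicate 3. These refits reuse the same libraries, and the median of all tested miRNAs was itself negative under each scaling, from -0.91 to -0.71. miR-320c lay above that median under each of these scalings. The shared sign is therefore no separate support for a change in the members. For miR-484 the log2 fold change ran from -1.85 to -1.23 and the unadjusted limma p from 0.0277 to 0.134. The labels do not say whether same-numbered libraries were paired. Their deviations from the group means correlated at -0.07, 0.06 and -0.09. This cannot decide it, since vehicle replicate 1 and WA replicate 3, which carry different numbers, stood apart from their groups. With the replicate block the log2 fold change of miR-484 stayed at -1.60 with a limma adjusted p of 0.319. By limma, 18 miRNAs in all passed an adjusted p of 0.05, and 24 did with the replicate block. This count was 7 with a pseudocount of 0.1 and 7 with a pseudocount of 10, 53 with no filter, 0 where each library had to reach 10 (29 at an unadjusted p under 0.05, where 173 miRNAs were tested) and 0 with thinning (86 unadjusted). With 1 library left out it ran from 0 to 147. Leaving out WA replicate 3 gave 147 and leaving out vehicle replicate 1 gave 21, while leaving out any of the other 4 gave 0, with 46 to 52 at an unadjusted p under 0.05. Apart from the change in the miRNAs or libraries entered, the cause was not tested.

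The difference of -0.12 percentage points in the share of miR-320a-3p had no stable sign. It was 0.40 against miR-320b alone, 0.79 when vehicle replicate 1 was left out, 0.04 for vehicle replicate 3 and 0.19 for WA replicate 1, and it ran from -1.19 to 0.79 with 1 library left out. The difference in the log2 family sum ran from -1.67 to -0.52 over its 10 alternatives. The count-based tests set beforehand were not run, and miR-320d left the test where a value of 10 was required in every library. WA replicate 1, with 156442 reads, limits what can be said of miR-320c, d and e.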

Other observations

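Among the miRNAs cut from small nucleolar RNAs, another group with its own route of maturation, 4 were in the table and all were tested. miR-664a-5p measured 0, 5.14 and 3.97 without WA and 417, 57.2 and 51.8 with WA (replicates 1 to 3), so every WA value was above every vehicle value, with a log2 fold change of 5.12 (standard error 1.37) and a limma adjusted p of 0.0753. miR-664a-3p, from the other arm, measured 119, 19.7 and 22.9 without WA and 0, 0 and 24.8 with WA, with a log2 fold change of -3.72 (limma adjusted p 0.182). miR-1248 was at 2058 and 1149 in WA replicates 1 and 2 and listed at 0 in WA replicate 3, against 5.43 to 15.9 in the vehicle libraries. miR-1291 was at 696, 182 and 1.50 in WA replicates 1 to 3, against 8.85 to 18.0 in the vehicle libraries. By limma, 0 of the 4 passed an adjusted p of 0.05, against 5.5% of all tested miRNAs. An unadjusted p under 0.05 was found for 2 of the 4, against 26.3%, namely miR-664a-5p and miR-664a-3p, whose differences had opposite signs. Over the list the median log2 fold change was 3.00, beside -0.91 for all tested miRNAs. The 2 arms of miR-664a went in opposite directions, and miR-1248 and miR-1291 lay under every vehicle value in WA replicate 3. This median therefore does not describe miRNAs cut from small nucleolar RNAs as a class.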
